A study of Mus musculus with 24 samples.

Results

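Loss of the transcription factor gene Tal1 was followed in mouse LMPP that had switched on a Rag2 reporter, by comparing 3 knockout (KO) with 3 control (Ctrl) libraries, 6 of the 24 libraries of the series. LMPP are lymphoid-primed multipotent progenitors, sorted here from bone marrow as CD135-positive LSK cells, and the 6 libraries were those labelled Rag2-GFP positive, chosen from the labels alone. KO animals carried the floxed Tal1 allele on both chromosomes (Tal1F/F), the Cre transgene VaviCre and the Rag2GFP reporter. Ctrl animals carried Tal1 F/F and Rag2GFP, and no Cre is named for them, so effects of Tal1 loss and of the transgene cannot be told apart. VaviCre is active across blood cells from the stem cell on, so the deletion precedes the LMPP stage. The labels used give no age, and they do not say whether each replicate came from its own mouse. A p-value from the fit of all 24 libraries therefore sets a difference against their scatter within groups, some of which could be technical. The other 18 libraries were GFP-negative LMPP and both GFP fractions of CD135-negative LSK cells (HSC), each again with 3 KO and 3 Ctrl libraries. They served to estimate the spread, and the GFP-negative LMPP and GFP-positive HSC served as comparisons.

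TAL1 is a basic helix-loop-helix protein that binds DNA as a pair with an E protein, in a complex with LMO2, LDB1 and a GATA factor, and it is required for red cell and megakaryocyte differentiation. LMPP carry the cytokine receptor CD135 (FLT3) and have largely given up red cell and platelet output while keeping lymphoid and some myeloid output. A LMPP that reports Rag2, one of the pair of genes that encode the recombinase of antigen receptor loci, has entered lymphoid priming.

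The genes that rose in KO were 4 adult globin genes and 1 gene of the red cell membrane, so the globin promoters are printed first, the places where a TAL1 and GATA complex could be looked for. Each line holds the 250 bases before the gene's start in RefSeq (GRCm38.p6), 5′ to 3′ on the gene's strand, and capitals mark a GATA motif (GATA with A or T before it and A or G after it, searched on both strands). The windows are chr7:103827929-103828178 (minus strand), chr7:103813924-103814173 (minus strand) and chr11:32283422-32283671 (plus strand).
Hbb-bs: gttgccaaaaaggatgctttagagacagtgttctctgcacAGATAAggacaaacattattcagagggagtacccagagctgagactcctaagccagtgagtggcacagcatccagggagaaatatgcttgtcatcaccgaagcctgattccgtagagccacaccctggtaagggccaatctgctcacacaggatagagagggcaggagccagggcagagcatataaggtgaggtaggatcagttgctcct
Hbb-bt: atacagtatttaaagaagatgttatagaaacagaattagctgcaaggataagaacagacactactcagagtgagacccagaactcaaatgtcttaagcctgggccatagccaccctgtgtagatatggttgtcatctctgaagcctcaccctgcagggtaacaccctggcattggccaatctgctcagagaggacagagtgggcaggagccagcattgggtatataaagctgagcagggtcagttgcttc
Hba-a1: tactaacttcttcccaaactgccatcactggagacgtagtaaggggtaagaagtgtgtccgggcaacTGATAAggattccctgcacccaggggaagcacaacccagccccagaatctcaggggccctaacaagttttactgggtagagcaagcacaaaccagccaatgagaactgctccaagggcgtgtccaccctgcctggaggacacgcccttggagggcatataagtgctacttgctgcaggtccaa
The window of Hbb-bs holds 1 GATA motif, whose first base lies 210 bases before the start, and that of Hba-a1 holds 1 at 183 bases. The Hbb-bt window holds none of these letters. Hba-a2 has a window that shares an unbroken run of 247 bases with that of Hba-a1, and it is not printed. Across 32851 such windows of all genes, 26.5% hold a GATA motif, and 66.2% hold an E-box (CANNTG), which is present in each of the 4 globin windows. Distances count from the RefSeq start, and the gene coordinates given below are those of GENCODE, whose gene models begin further upstream for Hbb-bs, Hbb-bt and Hba-a1, inside these windows. A motif is a match of letters, not a measured site. Slc4a1, the membrane gene, is named only.

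The values are the authors' normalised counts, listed for 17149 genes, with library totals of 7074216 to 10699556 in the 6 libraries. KO replicate 3 stood apart. It had 11684 genes above 1 normalised count, against 14578 to 15699 in the other 5 libraries. In KO replicate 3, 258 genes were below 1 that were above 50 in all 5 others, and no other library of the 6 had any such gene. In the same library 122 genes were above 100 and over 10 times every other library, against 0 to 7 in the others. It lists no gene at 0 but 5465 below 1. The counts of calls, the genes that passed and most other genes below are therefore also given without KO replicate 3; the interaction values of single genes include it. The genes behind the sort were all listed: Flt3 (4800 to 8620), Kit (2330 to 3820), Ptprc, the pan-leukocyte CD45 (2130 to 3140), and Ly6a, which encodes Sca1 (115 to 773), in the 6 libraries. Rag2 was 1070 to 2590 in these libraries and 45.3 to 167 in the GFP-negative LMPP.

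Across the 16215 genes tested on a log2(value + 4.1) scale, 5 rose in KO (0.0308%) and 2 fell (0.0123%), 7 in all (0.0432%), at an adjusted p under 0.05 in limma's test. The 5 that rose were Hbb-bs, Hbb-bt, Hba-a1, Hba-a2 and Slc4a1, and the 2 that fell were Tal1 and the predicted gene Gm19331. At an unadjusted p under 0.05 there were 435 genes higher and 816 lower in KO (2.68 and 5.03%), with a median change over all genes of -0.10. Without KO replicate 3 no gene passed, and 240 were higher and 122 lower at an unadjusted p under 0.05 (1.48 and 0.755%, 2.24% in all), with a median of 0.03. The count passing in limma was also 0 without Ctrl replicate 1 and without Ctrl replicate 2 (1243 and 782 genes at an unadjusted p under 0.05), and 3 without Ctrl replicate 3. It was 0 when only these 6 libraries were fitted (280 at an unadjusted p under 0.05).

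Tal1 (ENSMUSG00000028717, chromosome 4, 115056426 to 115071755, plus strand, GRCm38/mm10) was read first, as the targeted gene. It was 62.9, 136 and 0.499 normalised counts in KO replicates 1, 2 and 3 and 518, 396 and 575 in Ctrl replicates 1, 2 and 3. Every KO library lay below every Ctrl library. Its log2 change was -3.82 (SE 0.70, limma adjusted p = 0.0307, exact two-sided permutation p = 0.1, the smallest that 3 against 3 allows). Tal1 is among the 258 genes below 1 in KO replicate 3 alone, and without that library the change was -2.35 (adjusted p = 0.058). Without the 2 libraries of low detection in the series, KO replicate 3 and Ctrl HSC GFP-positive replicate 2, the change was -2.35 and passed (adjusted p = 0.0022). Without Ctrl replicate 1, 2 or 3 it was -3.78, -3.97 or -3.70, none passing. Counts were made per gene, so reads of the deleted and the retained exons are summed, and the level left in KO does not measure how complete the deletion was.

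No partner of TAL1 passed the test. Lmo2, the bridging LIM protein of the complex, was 2530, 2340 and 2070 in KO and 2140, 1190 and 2130 in Ctrl (log2 difference 0.39, adjusted p = 0.639, and 0.47 without KO replicate 3). Ldb1, its second adaptor, was 938, 682 and 1240 against 995, 544 and 1100. Lyl1, the closest relative of Tal1, was 886, 880 and 1510 against 1190, 831 and 1080 (0.05, SE 0.33, adjusted p = 0.986, and -0.21 without KO replicate 3). The groups overlapped for all 3 genes. Cbfa2t3, which encodes the corepressor ETO2 of the complex, was 561, 562 and 244 in KO and 983, 903 and 713 in Ctrl. Every KO library lay below Ctrl, but the difference of -1.01 did not pass (SE 0.35, adjusted p = 0.626, and -0.61 without KO replicate 3). Gata2, the GATA factor of early progenitors, was 192, 212 and 0.5 in KO and 40.2, 73.4 and 90.1 in Ctrl. KO replicates 1 and 2 lay above all Ctrl libraries and KO replicate 3 below them, and the log2 difference was -0.24 with it and 1.59 without it, neither passing. Of 16 complex genes tested, Tal1 alone passed, with a median of -0.17 (-0.15 without KO replicate 3) beside -0.10 over all genes.

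Adult globins and the red cell anion exchanger were the genes that went up. Hbb-bs, an adult beta globin gene (ENSMUSG00000052305, chromosome 7, 103826534 to 103828096, minus strand), was 421, 559 and 5170 in KO and 15.9, 4.34 and 62.1 in Ctrl. The lowest KO library lay above the highest Ctrl library, and KO replicate 3 lay far above the other KO libraries. Its log2 change was 5.58 (SE 0.84, adjusted p = 0.00527). Without KO replicate 3 the change was 4.45 (adjusted p = 0.058), and without the 2 libraries of low detection it was 4.45 and passed (adjusted p = 0.00207).

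Slc4a1, which encodes band 3, the chloride and bicarbonate exchanger of the red cell membrane (ENSMUSG00000006574, chromosome 11, 102348824 to 102366203, minus strand), was 87.7, 234 and 437 in KO. In Ctrl it was 0.178, 0 and 1.46, that is, near absent. The lowest KO library was far above the highest Ctrl library. The log2 change was 5.53 (SE 0.84, adjusted p = 0.00527), and 5.01 without KO replicate 3 (adjusted p = 0.058). With both low-detection libraries left out it passed (5.01, adjusted p = 0.0053).

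Both alpha globins and Hbb-bt, the other adult beta globin gene, rose as well. Hba-a2 (ENSMUSG00000069917, chromosome 11, 32296489 to 32297298, plus strand) was 62.9, 128 and 1700 in KO and 1.62, 3.59 and 2.23 in Ctrl (log2 change 5.24, SE 0.86, adjusted p = 0.011). Hba-a1 (ENSMUSG00000069919, chromosome 11, 32283511 to 32284465, plus strand) was 107, 157 and 781 against 8.78, 10.3 and 9.22 (4.16, SE 0.73, adjusted p = 0.0178). Hbb-bt (ENSMUSG00000073940, chromosome 7, 103812524 to 103813996, minus strand) was 153, 294 and 1770 against 14.5, 17.7 and 17 (4.42, SE 0.77, adjusted p = 0.0178). For each, all 3 KO libraries stood above all 3 Ctrl libraries, and KO replicate 3 was highest. Without KO replicate 3 the changes were 3.85, 3.31 and 3.40 (adjusted p = 0.0618, 0.205 and 0.205 for Hba-a2, Hba-a1 and Hbb-bt). With both low-detection libraries left out Hba-a2 and Hbb-bt passed (3.85 and 3.40, limma adjusted p = 0.0053 and 0.00207). Hba-a1 did not pass in that fit (3.31, limma adjusted p = 0.0609). Without Ctrl replicate 1 or without Ctrl replicate 2 none of the 5 red cell genes passed. The globin copies share much of their transcripts: 64.2% of the 76-base stretches of Hbb-bs occur in Hbb-bt, and 80.8% of those of Hba-a2 occur in Hba-a1. How counts were divided within each pair is therefore uncertain.

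**Figure D1:**
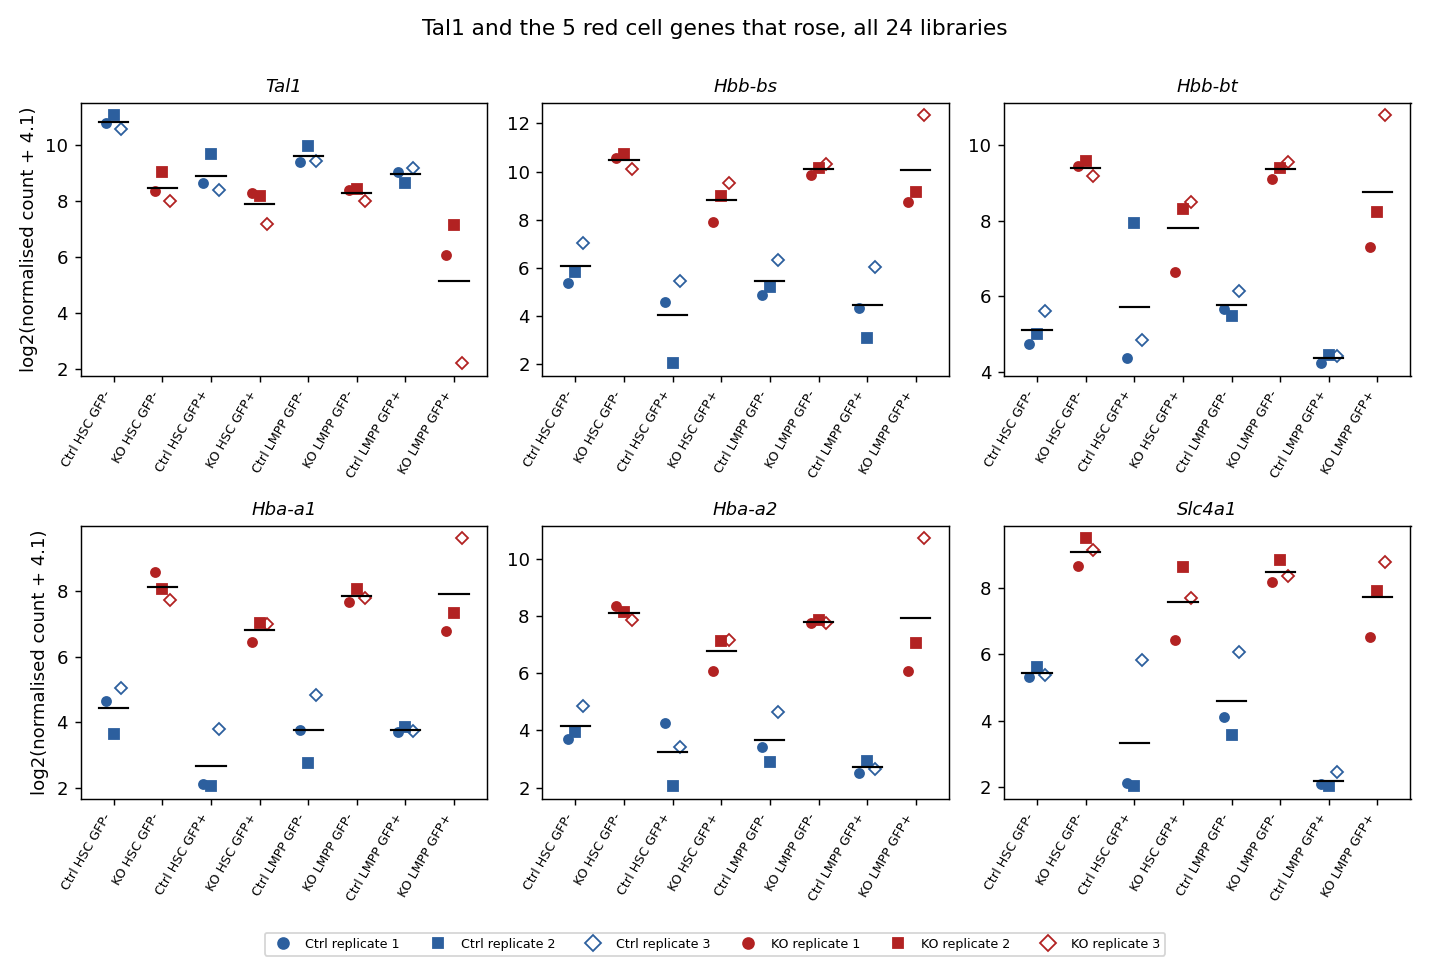
Tal1 and the 5 red cell genes in all 24 libraries, on a log2(normalised count + 4.1) axis; points are libraries (circle, square and open diamond for replicates 1, 2 and 3), blue is Ctrl, red is KO and bars are group means. In LMPP GFP+ cells the 3 KO libraries lie above the 3 Ctrl libraries for each red cell gene, and KO replicate 3, the open diamond, is highest for all 5 (Hbb-bs 5170 against 421 and 559).

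These 5 genes carried most of the difference in the summed level of the erythroid list. Of 30 members tested, 5 rose, none fell and 25 did not pass. The difference was positive for 22 and negative for 8, against 7234 and 8981 of all genes. The median was 0.86 against -0.10 over all genes. In 8 of 30 members every KO library lay above every Ctrl library (26.7%, against 4.3% of all genes tested), and in none below (5.25% of all genes). Without KO replicate 3 the median was 1.34, 13 of 30 were above Ctrl in both KO libraries left, against 10.6% of all genes, and none was below, against 7.97%. The summed level of the list was 4100, 4600 and 11800 in KO and 2720, 2490 and 2860 in Ctrl, without overlap. With the 5 passing genes set aside, which was done after their values were seen, the sum was 3270, 3230 and 1910 in KO and 2680, 2450 and 2770 in Ctrl. KO replicates 1 and 2 then lay above Ctrl and KO replicate 3 below it. Among the other 25 members 17 differences were positive and 8 negative. Their median was 0.589, beside -0.10 over all genes, and 0.735 without KO replicate 3, beside 0.03. For 3 members (12%, against 4.3% of all genes) every KO library lay above Ctrl, or for 8 without KO replicate 3 (32%, against 10.6%).

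No other membrane, skeleton or haem gene of the list passed. Those given here were chosen after their values were seen, stood at low levels and had positive differences. Of the 25 list members that did not pass, 8 had negative differences. Rhag, an ammonia channel of the Rh complex, was 10.6, 18.3 and 45.6 in KO and 0.167, 0 and 3.77 in Ctrl (log2 difference 2.30, adjusted p = 0.626, and 1.81 without KO replicate 3). Aqp1, the red cell water channel, was 18.5, 25.8 and 55.1 against 7.36, 0 and 3.78 (2.25, SE 0.77, adjusted p = 0.626, and 1.86 without it). Neither gene overlapped between the groups. Sptb, which encodes beta spectrin, was 26.3, 48.8 and 9.38 against 5.93, 0 and 7.66, again without overlap (1.83, adjusted p = 0.626, and 2.35 without it). Alas2, the red cell enzyme that begins haem synthesis, was 49.7, 46.9 and 247 against 17.3, 3.59 and 59.1, with overlapping groups (2.02, adjusted p = 0.626, and 1.26 without it).

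Regulators of red cell fate gave no common direction. Klf1, an activator of adult globin genes, was 28.8, 11.2 and 0.46 in KO and 3.06, 0.627 and 0 in Ctrl, so that KO replicates 1 and 2 carried it and KO replicate 3, with the most globin, did not. Gata1, the GATA factor of red cells, was at or near 0 in all 6 libraries except Ctrl replicate 3, at 9.22. Gfi1b was 285, 305 and 0.494 against 282, 293 and 219, level apart from KO replicate 3. Epor, the erythropoietin receptor, was 0.12, 6.8 and 0.451 against 0.167, 145 and 0, with a single high Ctrl library. None of these 4 genes passed. In bulk RNA, more cells of a type and more RNA per cell cannot be told apart.

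**Figure D2:**
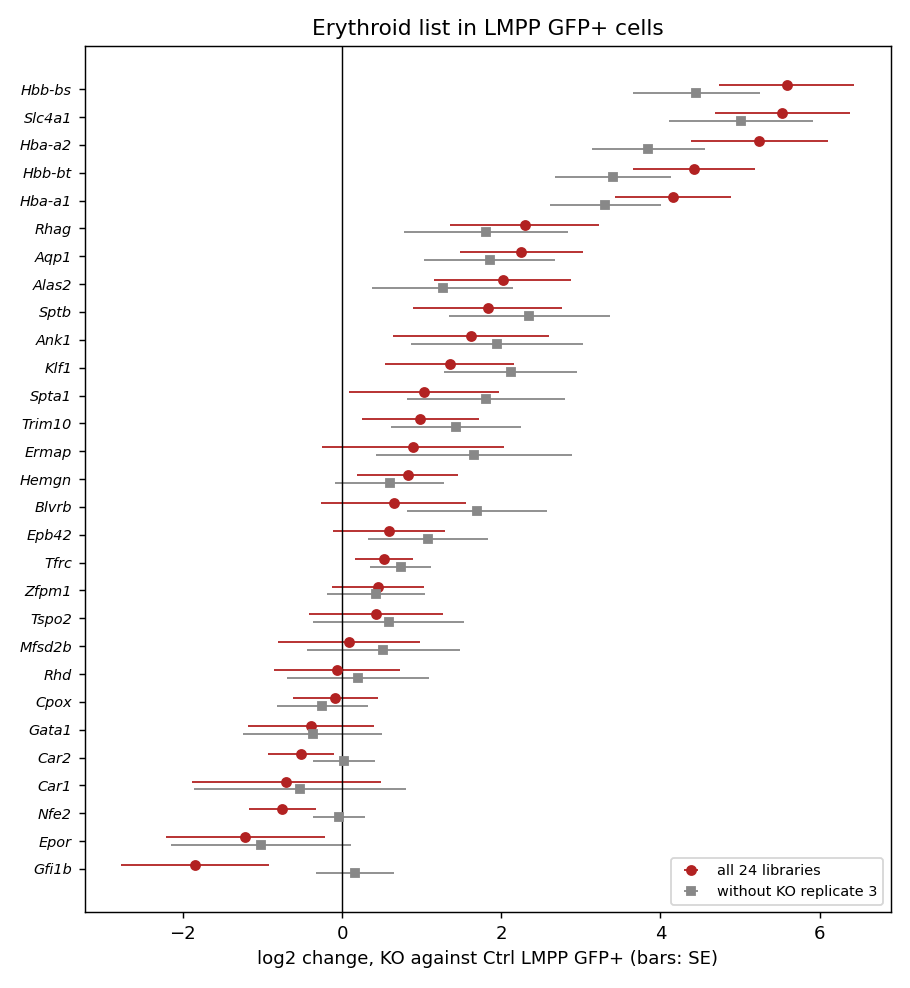
Log2 change of erythroid genes tested, KO against Ctrl LMPP GFP+, with SE; red circles use all 24 libraries and grey squares leave out KO replicate 3. The 5 genes at the top lie between 4.16 and 5.58 with all libraries and between 3.31 and 5.01 without KO replicate 3, and Gfi1b moves from -1.85 to 0.16.

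The same red cell genes were next read in the neighbouring populations, which have KO and Ctrl libraries of their own. In GFP-negative LMPP 9 genes passed (0.0555%), 4 higher and 5 lower in KO (0.0247 and 0.0308%), and 2.48% had an unadjusted p under 0.05. In GFP-positive HSC 70 passed (0.432%), 51 higher and 19 lower (0.315 and 0.117%), and 15.3% had an unadjusted p under 0.05. In GFP-negative LMPP Hbb-bs was 922, 1130 and 1260 in KO and 25.1, 32.8 and 76.6 in Ctrl (log2 change 4.64, adjusted p = 0.0226). In GFP-positive HSC it was 238, 501 and 736 against 19.8, 0.0324 and 40.2 (4.78, adjusted p = 0.0113). KO lay above Ctrl throughout. Slc4a1 was 286, 455 and 326 against 13.3, 7.91 and 62.8 in GFP-negative LMPP (3.87, adjusted p = 0.0978) and 81.9, 392 and 202 against 0.261, 0.0322 and 53 in GFP-positive HSC (4.25, adjusted p = 0.0219). The difference between the genotype effects in GFP-positive and GFP-negative LMPP, tested as an interaction, was 0.95 for Hbb-bs (SE 1.19, adjusted p = 0.978) and 1.66 for Slc4a1 (adjusted p = 0.978). Against GFP-positive HSC it was 0.81 (adjusted p = 0.8) and 1.29 (adjusted p = 0.667). Neither interaction passed for either gene. Median differences of the erythroid list were 1.81 in GFP-negative LMPP and 1.56 in GFP-positive HSC. Among Ctrl libraries the summed list was 2490 to 2860 in GFP-positive LMPP and 3780 to 4340 in GFP-negative LMPP.

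No lymphoid priming gene passed the test. Rag2 was 1140, 1570 and 2590 in KO and 1630, 1290 and 1070 in Ctrl, overlapping (log2 difference 0.35, SE 0.52, adjusted p = 0.862, exact two-sided permutation p = 0.5). The difference was 0.03 without KO replicate 3. Rag1, its partner, was 173, 162 and 280 against 225, 96.6 and 231. Dntt, the terminal transferase that adds bases at antigen receptor joints, was 10400, 8390 and 22200 against 10600, 14700 and 9890 (0.11, SE 0.44, adjusted p = 0.968, and -0.31 without KO replicate 3). For these 3 genes KO replicate 3 was the highest library and the other KO libraries lay within or below the Ctrl range. Flt3, the receptor behind CD135, was 4800, 5460 and 8620 against 5810, 5960 and 6250, with the same arrangement. KO and Ctrl cells were both sorted on the Rag2 reporter and on CD135. The levels of Rag2 and Flt3 therefore cannot be read apart from the gate.

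Il7r, the interleukin 7 receptor chain, was 608, 572 and 574 in KO and 243, 497 and 325 in Ctrl. Each KO library lay above each Ctrl library, yet the difference of 0.78 did not pass (SE 0.85, adjusted p = 0.803) and 0.79 was found without KO replicate 3. This SE came from the scatter within groups of all 24 libraries, not of these 6 alone. Il4ra (405, 408 and 862 against 268, 337 and 250) and the shared cytokine receptor chain Il2rg (527, 583 and 544 against 440, 308 and 444) were likewise above Ctrl in each KO library, and neither passed. Of 19 lymphoid priming genes tested none passed, the median was 0.08, and 2 were above Ctrl in every KO library (10.5%, against 4.3% of all genes). Of 15 recombination genes none passed (median 0.21, -0.03 without KO replicate 3). Of 15 lymphoid cytokine receptor and signalling genes none passed, with 3 above Ctrl in every KO library (20%, against 4.3% of all genes). Leaving out KO replicate 3 gave 4 above and 1 below, against 10.6 and 7.97% of all genes. In the whole comparison 1251 genes (7.72%) had an unadjusted p under 0.05, and among the 19 lymphoid priming genes there were 0.

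No transcription factor of lymphoid priming passed. Satb1, a chromatin organiser, was 4580, 5320 and 6620 in KO and 4950, 6260 and 5270 in Ctrl (-0.00, SE 0.28, adjusted p = 0.997, and -0.15 without KO replicate 3). Ikzf1, which encodes Ikaros, was 6740, 6020 and 7010 against 7580, 6790 and 5210 (0.03, SE 0.23, and -0.02 without it). Tcf3, the E protein gene whose products pair with TAL1, was 1070, 1150 and 1360 against 1250, 743 and 969 (0.30, adjusted p = 0.817, and 0.20 without it). Id2, an inhibitor of E proteins, was 6.69, 9.97 and 75.8 against 1.63, 10.3 and 9.22, high in KO replicate 3 only (1.16, and 0.26 without it). Notch1 was 3650, 3060 and 4560 against 3690, 3070 and 3790, and its target Hes1 lay at or below 1.45 in all 6 libraries.

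No B lineage gene passed. Ebf1, the early B cell factor, was 44.8, 18 and 8.94 in KO and 30.7, 46.1 and 21.2 in Ctrl (-0.55, adjusted p = 0.837, and -0.10 without KO replicate 3). Ighm, the mu heavy chain locus, was 9180, 8140 and 9200 against 10100, 7890 and 6430. Bach2, the gene of a transcriptional repressor expressed in B lymphoid cells, was 384, 514 and 0.497 against 608, 572 and 450. Its log2 difference of -2.48 became -0.28 without KO replicate 3. None of 14 B lineage genes tested passed (median -0.04, and -0.01 without KO replicate 3).

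T and NK lineage genes had more negative than positive differences (15 against 7), as had all genes tested (8981 against 7234), and none of the list passed. Lck, a kinase of T cell receptor signalling, was 225, 142 and 26.9 in KO and 285, 603 and 356 in Ctrl. Zap70, the kinase it acts on, was 1.39, 10.2 and 0.223 against 24.7, 13.3 and 6.4, and Cd4 was 15.8, 39.4 and 0.458 against 80.9, 64.8 and 143. Lck and Cd4 did not overlap between groups, while Zap70 did. Their differences were -1.98, -1.32 and -2.59 for Lck, Zap70 and Cd4 (adjusted p = 0.626 for each) and -1.12, -0.98 and -1.69 without KO replicate 3. Of 22 T and NK genes tested none passed, with a median of -0.71 and 2 below Ctrl in every KO library (9.09%, against 5.25% of all genes). The median was -0.28 without KO replicate 3. The genes of committed T cells were nearly silent in both groups: Bcl11b was at most 0.422, Cd3e at most 0.202 and Trbc1 at most 1.62. Tcf7, a Notch-driven T cell factor, was 15.8, 0 and 0.491 against 0.177, 54.8 and 1.46. Gata3 was 4.07, 36 and 0.486 against 25.9, 129 and 9.99 (-1.74, adjusted p = 0.653).

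**Figure D3:**
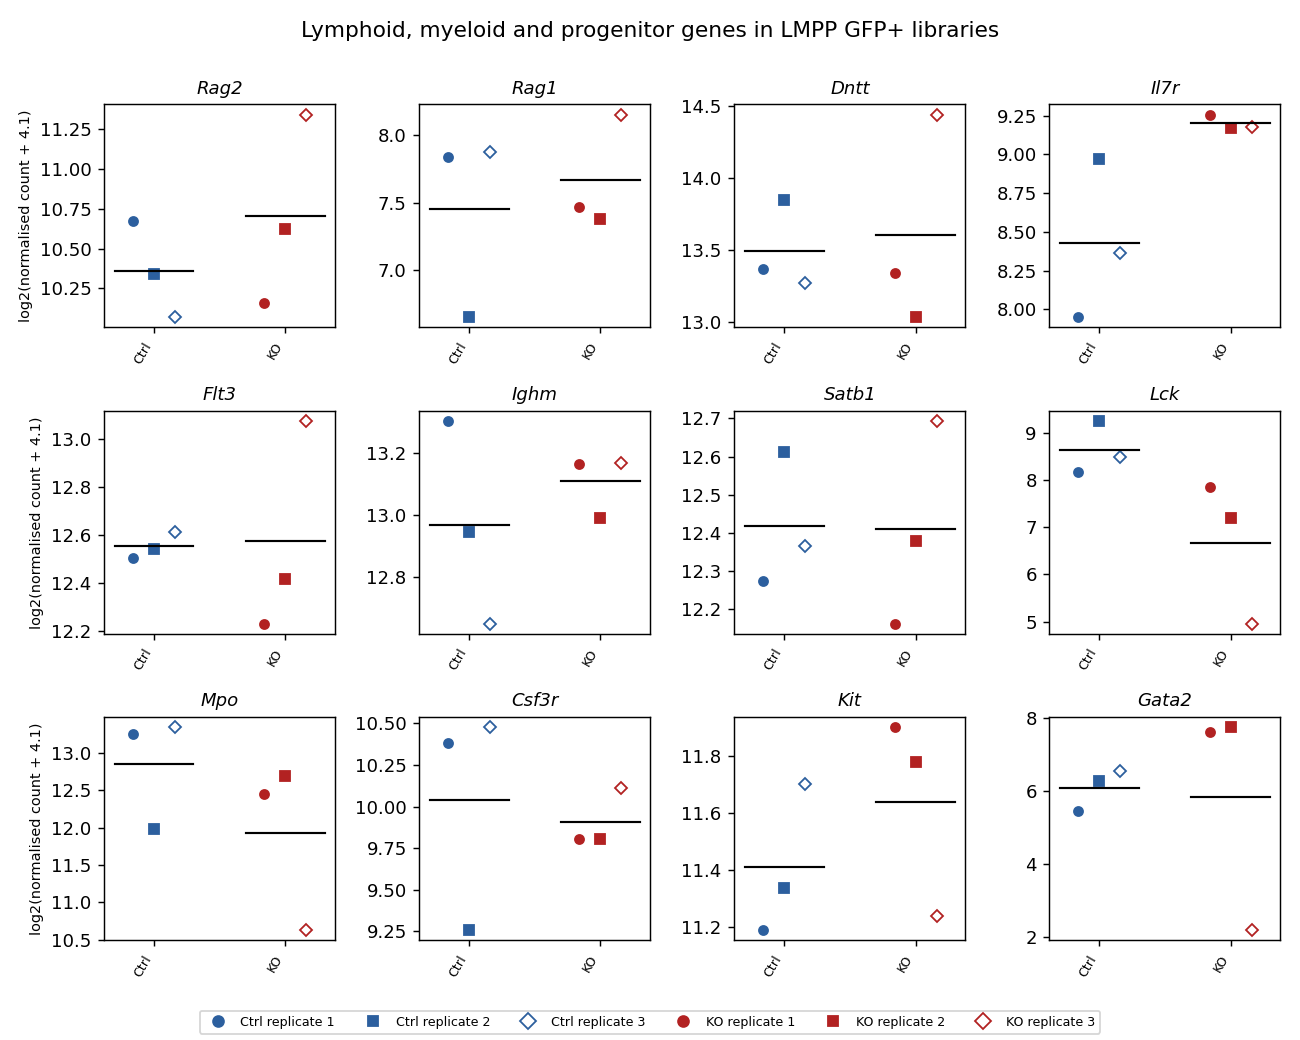
Lymphoid, myeloid and progenitor genes in the 3 Ctrl (blue) and 3 KO (red) LMPP GFP+ libraries, on log2(normalised count + 4.1) axes that do not start at 0; bars are means. For Rag2, Rag1, Dntt and Flt3 the open diamond, KO replicate 3, is the highest point, and for Lck, Mpo and Gata2 it is the lowest, while Il7r is higher in each KO library (572 to 608) than in Ctrl (243 to 497).

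No myeloid gene passed in GFP-positive LMPP. Mpo, which encodes myeloperoxidase, was 5590, 6630 and 1580 in KO and 9730, 4050 and 10400 in Ctrl (-0.94, SE 0.49, adjusted p = 0.626, and -0.29 without KO replicate 3). In GFP-negative LMPP it fell, from 3910, 5860 and 6750 in Ctrl to 531, 572 and 838 in KO (-3.07, adjusted p = 0.00723). The interaction of genotype and GFP for Mpo was 2.14 (SE 0.69, adjusted p = 0.978), so the effects in the 2 fractions were not shown to differ. Csf3r, the G-CSF receptor, was 889, 890 and 1100 against 1330, 608 and 1420. Of 32 granulocyte and monocyte genes tested none passed (median -0.13, 0.01 without KO replicate 3). Of these, 1 was below Ctrl in every KO library (3.12%, against 5.25% of all genes), or 2 without KO replicate 3 (against 7.97%). Their summed level was 8800 to 15700 in KO and 10600 to 20200 in Ctrl.

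Mast cell proteases were at the bottom of the scale in both groups: Mcpt4 was at most 0.485, Cma1 at most 1.62 and Tpsb2 at most 1.62 over the 6 libraries. In GFP-negative LMPP Mcpt4 was 94.2, 516 and 17.8 in KO and 0.128, 0 and 0 in Ctrl (4.65, adjusted p = 0.0362). The interaction for Mcpt4 was -4.60 (SE 1.26, adjusted p = 0.978) and did not pass. With Mcpt4 at the floor in GFP-positive LMPP, this interaction restates the difference in GFP-negative LMPP. Of 19 mast cell, basophil and eosinophil genes tested none passed (median 0.03, and 1.16 in GFP-negative LMPP). Of the 21 with values, 10 to 18 lay below 1 in each of the 6 libraries, where the pseudocount holds differences near 0. The summed list was 715 to 1110 in KO and 222 to 854 in Ctrl. In all KO libraries 0 lay above Ctrl and 1 below (against 4.3 and 5.25% of all genes). Leaving out KO replicate 3 gave 3 above and 1 below (against 10.6 and 7.97%). Fcer1g, a receptor subunit shared by many myeloid cells, was 512, 512 and 340 against 264, 89.7 and 369 (1.10, adjusted p = 0.626).

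No marker of other cells that the gate could hold passed, and their part in the red cell result was not tested. Among platelet genes Pf4 was at most 0.477 and Itga2b at most 18.9, and none of 18 tested passed (median 0.04). Among macrophage genes Adgre1 was at most 0.248 and C1qb at most 3.02, none of 10 tested passed, and the summed list was 260 to 484 in KO and 331 to 560 in Ctrl. Of the 18 dendritic cell and MHC class II genes, 5 plasma cell genes and 8 stroma and endothelium genes tested, none passed. Summed levels were 7410 to 7720 and 6820 to 8730, 86 to 800 and 491 to 1210, and 1630 to 3860 and 1120 to 1780, in KO and Ctrl and in that order of lists.

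Stem cell, cell cycle and adhesion genes held single members whose groups stood apart, none of them passing. Ifitm1, an interferon-induced membrane protein gene of early progenitors, was 200, 165 and 44.5 in KO and 395, 333 and 369 in Ctrl (-1.64, SE 0.44, adjusted p = 0.626). Pdzk1ip1, which lies near Tal1 on chromosome 4 (115088708 to 115093899), was 106, 51.9 and 66.3 against 0.177, 3.59 and 27.1 (2.91, SE 0.95, adjusted p = 0.626, and 2.96 without KO replicate 3). Hlf, a stem cell transcription factor, was 2080, 3090 and 1740 against 1470, 935 and 1180 (0.92, adjusted p = 0.626, and 1.10 without it). In all 3 genes the groups did not overlap. Of 34 stem cell genes tested none passed, 4 were above and 4 below Ctrl in every KO library (11.8% each, against 4.3 and 5.25% of all genes), and the median was -0.13. Leaving out KO replicate 3 gave 7 above and 4 below (against 10.6 and 7.97% of all genes), with a median of 0.25.

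Among D-type cyclins, which drive entry into the cell cycle, Ccnd3 was 828, 721 and 1170 in KO and 460, 345 and 458 in Ctrl (1.08, SE 0.29, adjusted p = 0.626). Ccnd2 was 1770, 2210 and 1550 against 3460, 3450 and 2900 (-0.83, SE 0.27, adjusted p = 0.626). Neither overlapped, and the differences were 0.88 and -0.72 without KO replicate 3. Mki67, a proliferation marker, was 11000, 8680 and 14100 against 10400, 11900 and 9460 (0.06, SE 0.26). Of 36 cell cycle genes tested none passed (median 0.08, and 0.02 without KO replicate 3). For 2 of them every KO library lay above Ctrl and for 1 below (5.56 and 2.78%, against 4.3 and 5.25% of all genes). Without KO replicate 3 there were 4 above and 2 below, against 10.6 and 7.97% of all genes. Cd44, a hyaluronan receptor, was 2300, 2620 and 1890 in KO and 2930, 3460 and 4270 in Ctrl (-0.64, SE 0.20, adjusted p = 0.626, and -0.52 without KO replicate 3). Of 18 adhesion genes, 3 were below Ctrl in every KO library (16.7%, against 5.25% of all genes) and 1 above. With KO replicate 3 left out there were 5 below (against 7.97%) and 1 above.

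Among 25 interferon response genes 20 differences were positive, against 7234 of all 16215 genes, and none of the list passed. Ifi203 was 4270, 3920 and 5340 in KO and 2520, 2640 and 3200 in Ctrl (0.69, SE 0.22, adjusted p = 0.626, and 0.56 without KO replicate 3). Ifit1 was 195, 145 and 781 against 94.4, 99.4 and 83.1 (1.57, adjusted p = 0.626, and 0.84 without it). Both were without overlap. The median was 0.34, and 3 of 25 were above Ctrl in every KO library (12%, against 4.3% of all genes), or 0.56 and 11 of 25 without KO replicate 3 (against 10.6% of all genes). Their summed level was 9730 to 11600 in KO and 7170 to 8240 in Ctrl.

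No mitochondrially encoded or ribosomal protein gene passed. All 16 mitochondrially encoded genes tested had positive differences, against 7234 of all 16215 genes, and none passed (median 0.70, and 0.38 without KO replicate 3). In 6 of them (37.5%) every KO library lay above every Ctrl library, against 4.3% of all genes. Leaving out KO replicate 3 gave 7 of 16, against 10.6% of all genes. Mitochondrial ribosomal RNA made up 30.6, 28 and 23.1% of the total in KO replicates 1, 2 and 3 and 27.7, 17.4 and 24.6% in Ctrl. Ribosomal protein genes summed to 300000, 284000 and 582000 in KO and 347000, 233000 and 257000 in Ctrl, high in KO replicate 3. Their median over 82 genes was 0.39, or 0.12 without it, and none passed. The mitochondrially encoded genes summed to 2860000, 2540000 and 2700000 in KO and 2670000, 1310000 and 2050000 in Ctrl. The part of these values in the red cell result was not tested.

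**Figure D4:**
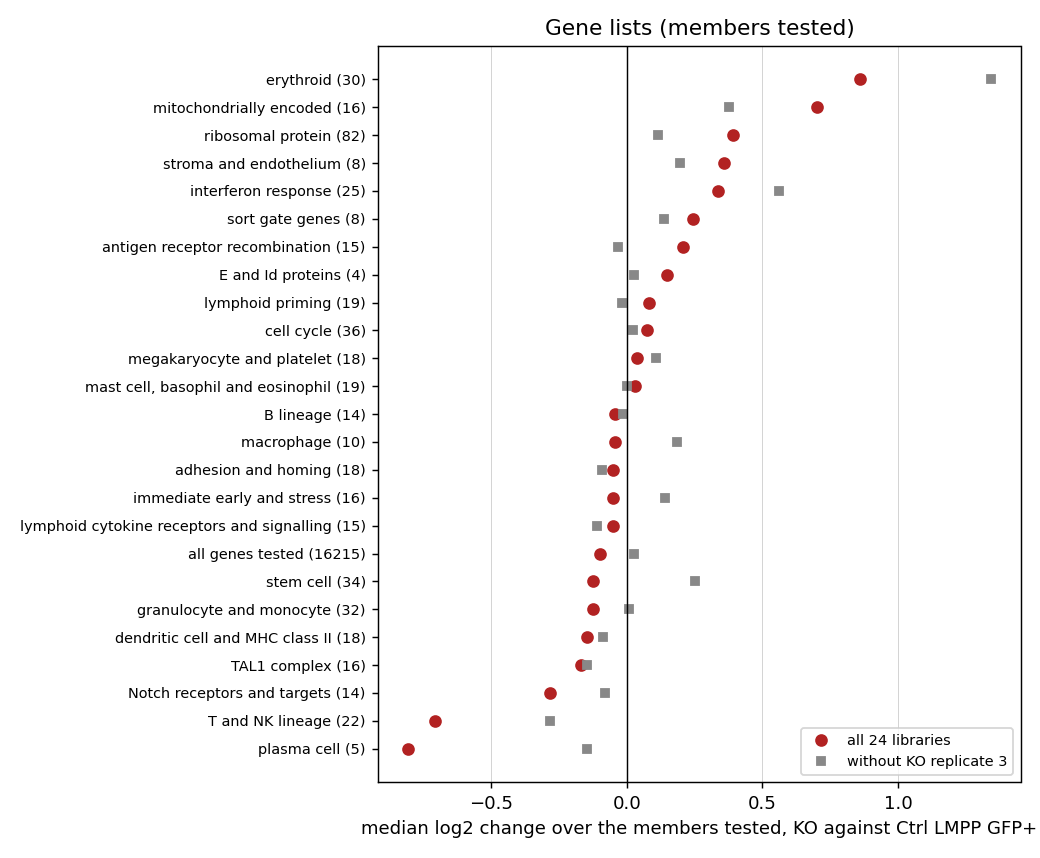
Median log2 change over the members tested of each gene list, with the number tested in brackets, KO against Ctrl LMPP GFP+; red circles use all 24 libraries and grey squares leave out KO replicate 3. The erythroid list is highest either way (0.86 and 1.34), and the T and NK lineage list moves from -0.71 to -0.28 without that library, beside -0.10 and 0.03 over all genes.

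After Tal1, the genes lower in KO with the smallest p, predicted genes aside, were Tspan5, Sez6l, Ifitm1 and Col19a1, none passing. Tspan5, a tetraspanin gene, was 94.2, 173 and 31.3 against 280, 352 and 441 (-2.06, adjusted p = 0.466, and -1.43 without KO replicate 3). Sez6l was 2.76, 0 and 0.402 against 7.29, 177 and 54.3 (-3.30, adjusted p = 0.53, and -3.22 without it), and Col19a1 was 0.103, 1.1 and 0.359 against 3.03, 81.6 and 40.4 (-2.71, adjusted p = 0.626, and -2.69 without it). For each of these 4 genes every KO library lay below every Ctrl library. Gm19331, the predicted gene that passed, was 7.92, 5.58 and 0.387 against 33.5, 94 and 61.6 (-2.95, adjusted p = 0.0433, and -2.53 with adjusted p = 0.703 without KO replicate 3). It was chosen after its values were seen, because predicted genes were not to be named.

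The genotype effect was last compared between populations gene by gene. Between GFP-positive and GFP-negative LMPP no gene passed the interaction test in limma, and 531 of 16215 had an unadjusted p under 0.05 (3.27%). With array weights, which give KO replicate 3 a weight of 0.1, 6 genes passed. Between GFP-positive LMPP and GFP-positive HSC 5 genes passed (0.0308%), 1 with a positive and 4 with a negative difference (0.00617 and 0.0247%), and 12.5% of all genes had an unadjusted p under 0.05. For Bcl11b, a T lineage factor, Cdh1, which encodes E-cadherin, and Gzmb, the granzyme B gene, all 6 LMPP libraries lay below 1, so that with LMPP at the floor these interactions restate the difference in HSC. St8sia6, a sialyltransferase gene, was 0.127, 7.43 and 0.488 in KO LMPP and 8.78, 25.1 and 40.3 in Ctrl LMPP, every KO library lower. In GFP-positive HSC it was 120, 281 and 129 in KO and 0.259, 0.032 and 0.245 in Ctrl, every KO library higher. Syde1, a RhoGAP gene, was 32.8, 50 and 0.483 against 71.4, 67.5 and 83.2 in LMPP and 106, 89.2 and 216 against 10.1, 0.0318 and 3.47 in HSC, again in opposite directions. Within LMPP alone St8sia6 and Syde1 did not pass (-2.08 and -1.90, adjusted p = 0.626 for each, and -1.87 and -0.80 without KO replicate 3).

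**Figure D5:**
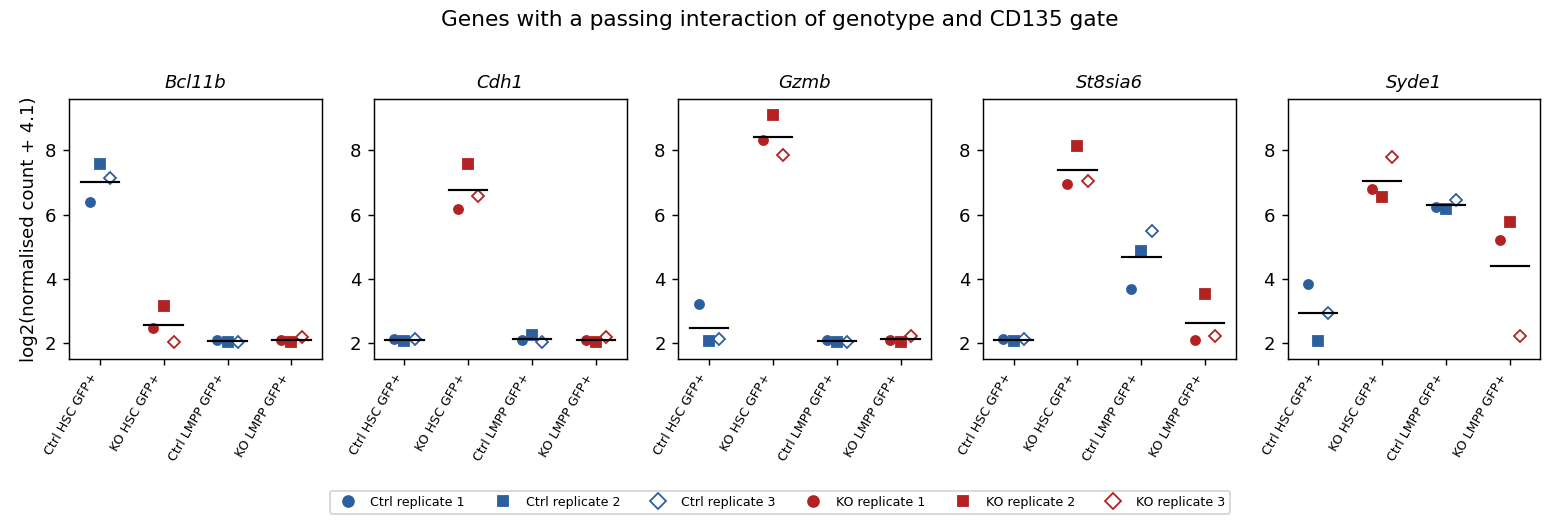
The 5 genes with a passing interaction of genotype and CD135 gate, in GFP+ HSC and GFP+ LMPP libraries, on a log2(normalised count + 4.1) axis; points are libraries and bars are means. Bcl11b, Cdh1 and Gzmb lie at the bottom of the axis in all 6 LMPP libraries, while St8sia6 and Syde1 are lower in KO LMPP and higher in KO HSC.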

How the data were processed

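Sorted mouse bone marrow cells gave RNA that was amplified with an ultralow-input kit and sequenced for 76 cycles, per the labels' protocols. Trimmomatic 0.33, HTSeq 0.6.1, edgeR (no version) and the mm10 genome are named in the submitters' processing notes; which aligner and normalisation function were used is not given there. The authors deposited a signal per gene and library, a count after normalisation. Only 0.594% of the nonzero entries came within 0.001 of a whole number; reads were therefore not recovered, depth in reads is unknown, and precision rests on 3 libraries a group. Names and coordinates came from GENCODE M21 for 16985 of 17149 identifiers.

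Genes with at least 1 ppm of the library total in at least 3 of 24 libraries were kept (16215). All 24 libraries entered one limma fit of log2(value + 4.1) on their 8 groups, 4.1 being 0.5 ppm of the mean total (limma 3.58.1, R 4.3.3, empirical Bayes with trend). The pseudocount shrinks changes of low genes. Benjamini-Hochberg adjustment ran over all genes in each comparison: KO against Ctrl in GFP-positive LMPP, GFP-negative LMPP and GFP-positive HSC, and the interactions of genotype with GFP and with the CD135 gate. Tal1 and Rag2 also had an exact permutation test. The method was tested on simulated data with normal scatter on the log2 scale. Those data did not copy the genes below 1 in KO replicate 3 alone. The members and gene lists were chosen with earlier results of these data known. Genes named were those passing without overlap and with a mean of at least 5 ppm, the 5 with the smallest p where fewer passed in a direction, up to 6 passing members of each list or else its 3 with the smallest p, and a fixed set of regulators; other list members are given as values and were chosen after these were seen. Predicted genes and receptor segments were not to be named. Pseudocount, filter, scaling, weights, block and left-out libraries were varied. Some genes are not reported here and 1 erythroid gene is left out of its plot.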

Additional observations from a re-analysis of the deposited data

Results flagged for a closer look

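The interaction of genotype and CD135 gate in GFP-positive cells passed limma's test for 5 genes. The difference on the log2 scale was 4.53 for Bcl11b (SE 0.61, adjusted p = 0.000727), -4.71 for Cdh1 (SE 0.75, adjusted p = 0.00717) and -5.92 for Gzmb (SE 1.01, adjusted p = 0.0164). These 3 genes lay below 1 in all 6 LMPP libraries and were tested because of their level in other groups, so their interaction restates the difference in HSC. It was -7.37 for St8sia6 (SE 0.98, adjusted p = 0.000727) and -6.00 for Syde1 (SE 1.07, adjusted p = 0.0247). When only the 12 libraries of these 4 groups were fitted none of the 5 passed (adjusted p = 0.533, 0.289, 0.134, 0.122 and 0.768 in the same order). Without the 2 libraries of low detection St8sia6 passed (-7.14, adjusted p = 0.00382), while Cdh1, Gzmb and Syde1 did not (adjusted p = 0.0862, 0.0862 and 0.0746) and Bcl11b was no longer among the genes tested.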

How the results depend on the processing

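The 7 genes passing in KO against Ctrl became 0 when only the 6 libraries compared were fitted, 0 from the 5 libraries left without KO replicate 3 (chosen after seeing the data), and 0 to 6 when 1 library was left out. With array weights 9 passed, the 7 among them. With both low-detection libraries left out 6 passed, 5 of them among the 7. Tal1 missed the threshold when the pseudocount was 0.1 ppm (-4.44, adjusted p = 0.17), from the 6 libraries alone (-3.82, adjusted p = 0.856), without the intensity trend (-3.82, adjusted p = 0.143) or from the 5 libraries (-2.35, adjusted p = 0.163), and ran from -4.82 to -2.35 with 1 library left out. Rag2 passed nowhere. The interaction with GFP gave 1 gene with equal totals, 6 with array weights and 0 to 1 with 1 library left out. The 5 of the interaction with the CD135 gate became 1 with a pseudocount of 0.1 ppm, 8 with equal totals, 2 with quantile normalisation, 0 from the groups compared alone, 1 with both low-detection libraries left out, 1 under array weights, 8 without the trend, and 2 to 123 with 1 library left out (123 without Ctrl HSC GFP-positive replicate 3). The cause was not tested. The replicate block gave 7 genes, the same 7, with Tal1 at -3.82 (limma adjusted p = 0.00806). Deviations of same-numbered Ctrl and KO libraries had correlations of 0.029, -0.0106 and 0.03, which do not settle whether the numbers pair them. The labels' description numbers recur across the sorted populations of a genotype. The main fit did not use them, and with them as a random effect the same 7 genes passed (Tal1 -3.82, limma adjusted p = 0.0254). Over 19 alternatives Hbb-bs passed in 14, Hbb-bt in 13 and Hba-a1 in 11, all with positive changes. Of 80 named genes that did not pass, none passed in any alternative and 14 changed sign in some. The all-gene median was -0.26 with equal totals and -0.02 with quantile normalisation. Low values cannot be compared between libraries that list 0 and those that list small fractions.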

Other observations

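Values of 3 genes outside the lists are given here. Tent5c was 44.6, 61.4 and 528 in KO and 5.92, 0.63 and 0.68 in Ctrl (log2 difference 4.29, SE 0.96, limma adjusted p = 0.261), Btnl10 24.9, 36.8 and 69.5 against 1.62, 0.627 and 0.678 (3.13, adjusted p = 0.446), and Sva 11.7, 17.4 and 46.3 against 0.144, 0 and 0 (2.64, adjusted p = 0.0611). None passed, and they were chosen after their values were seen. Without KO replicate 3 the differences were 3.21, 2.77 and 2.15 for Tent5c, Btnl10 and Sva. Each gene was higher in all 3 KO libraries than in any Ctrl library.

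Egr2, an immediate early gene, was 1740 in KO replicate 3 and at most 2.37 in the other 5 libraries. Nr4a1, of the same class, was 19.7, 13.8 and 43.4 in KO and 69.4, 71.7 and 84.4 in Ctrl (-1.54, adjusted p = 0.626, and -1.94 without KO replicate 3).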
